A study of Rattus norvegicus with 12 samples.

Results

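The interferon-induced genes Mx1, Mx2, Oas1a, Irf1, Irf7, Stat2, Isg15 and Tap1 were followed in the lungs of normal and diabetic rats. Their probe sets were all those that the annotation of the Affymetrix RAE 230A array assigns to 1 of these genes alone, and dim probe sets were kept. Of the 8 genes, 7 had such a probe set and Isg15 had none. They had 10 probe sets among the 15866 that remained after array controls were left out, and the array named 10411 genes in all. Mx2, Stat2 and Tap1 had a pair of probe sets each and the others had 1.

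The 12 arrays each held RNA from the whole lung of 1 male Wistar rat, so the replicates were separate animals. The 7 diabetic rats were given streptozotocin at 8 weeks of age, which kills the beta cells that secrete insulin, and their lungs were taken at 12 weeks of age after 4 weeks of diabetes. The 5 normal rats were of the same age and had received only the buffer. Streptozotocin models diabetes by loss of beta cells, and a lasting effect of the toxin itself on the lung cannot be told apart from diabetes in this design. Whole lung mixes many cell types, so fewer cells of a type and less RNA per cell cannot be told apart. Values are MAS 5.0 signals, an intensity on a linear scale that the authors had scaled to the same trimmed mean on every array. Signals of different probe sets are not compared as transcript levels. A fold change is the ratio of the group mean signals, with a minus sign where diabetic lung was lower, and a log2 change is the difference of the group means of log2 signal.

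Interferons are secreted proteins that cells release when they sense viral nucleic acid or other danger. Type I interferons bind the receptor pair Ifnar1 and Ifnar2, and receptor kinases such as Tyk2 then activate Stat2, which acts with Irf9 to switch on a large set of antiviral genes. Interferon gamma binds a receptor of its own and induces Irf1 and the genes of antigen processing. In the lung, epithelial cells, macrophages and plasmacytoid dendritic cells all sense virus, and interferon-induced genes are transcribed at a low level even without infection.

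The median signal per array was 259.6 to 272.0 in normal and 252.7 to 265.6 in diabetic lung, and Pearson's r over the 66 pairs of arrays was 0.937 to 0.967 across probe sets. GAPDH control probe sets at the 3' and 5' ends of the transcript, whose ratio varies with RNA integrity and labelling, had a 3'/5' ratio that was lower in diabetic lung (1.15 ± 0.0710, SD, n = 7) than in normal lung (1.32 ± 0.0778, SD, n = 5; exact permutation test, p = 0.00505). The same ratio for beta-actin averaged 2.08 ± 0.372 in diabetic (SD, n = 7) and 2.06 ± 0.437 in normal lung (SD, n = 5; p = 0.920 by exact permutation). The 7 lung epithelial markers, the surfactant genes Sftpa1, Sftpb, Sftpc and Sftpd, the club cell gene Scgb1a1 and the type I cell genes Ager and Aqp5, were all on the array and bright, with a summed signal of 94720 to 115930 in normal and 90843 to 120330 in diabetic lung, and none passed the adjusted threshold. Both type I cell genes were below all normal animals in 6 of 7 diabetic animals, with log2 changes of -0.52 for Aqp5 and -0.24 for Ager (limma, unadjusted p = 0.0056 and 0.0254). In the comparison of the groups with limma, 7 of the 15866 probe sets (0.0441%) passed an adjusted p of 0.05 after Benjamini-Hochberg adjustment, and 2011 (12.7%) had an unadjusted p under 0.05.

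None of the 10 member probe sets passed the adjusted threshold in limma, and 2 had an unadjusted p under 0.05: the dimmer probe set of Mx2, lower in diabetic lung, and that of Irf1, higher in diabetic lung. The groups overlapped for all 10 member probe sets, while 1.38% of all probe sets had groups that did not overlap. The log2 change was above 0 for 6 member probe sets and below 0 for 4, with a median of 0.03, beside a median of -0.02 over all probe sets.

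Mx1 and Mx2 encode dynamin-like GTPases that block the replication of viruses, and they lie on the same chromosome with 1 annotated gene, Fam3b, between them. The Mx1 probe set (1371015_at) had signals of 349.4, 351.5, 400.1, 548.4 and 484.6 in normal animals 1 to 5. Diabetic animals 1 to 7 read 843.0, 211.4, 2153.9, 380.4, 476.3, 271.1 and 459.4. Diabetic animals 1 and 3 lay above every normal animal, diabetic animals 2 and 6 lay below every one, and the other 3 fell within the normal range. The mean was 427 ± 87.3 (SD, n = 5) in normal and 685 ± 679 (SD, n = 7) in diabetic lung, a fold change of 1.61. The log2 change of Mx1 was 0.27 (SE 0.43, adjusted p = 0.839 in limma), and it turned to -0.07 without diabetic animal 3.

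The pair of Mx2 probe sets gave different answers. The brighter one (1387283_at) had signals of 389.2, 353.0, 378.8, 546.7 and 297.2 in normal animals 1 to 5. Its signals in diabetic animals 1 to 7 were 510.1, 114.6, 1241.5, 393.3, 402.2, 182.1 and 604.9. Again diabetic animals 2 and 6 lay below all normal animals, and diabetic animals 3 and 7 lay above them. The means were 393 ± 93.0 (SD, n = 5) and 493 ± 372 (SD, n = 7), a fold change of 1.25, with a log2 change of 0.00 (SE 0.44, adjusted p = 1.00 in limma).

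The dimmer Mx2 probe set (1369202_at) had signals of 293.3, 364.6, 390.8, 350.7 and 123.1 in normal animals 1 to 5. Those of diabetic animals 1 to 7 were 90.4, 37.8, 57.8, 341.9, 49.4, 28.0 and 70.1. Every diabetic animal except number 4 lay below all normal animals, and diabetic animal 4 lay among the normals. The mean fell from 304.5 ± 108 (SD, n = 5) to 96.5 ± 110.2 (SD, n = 7), a fold change of -3.16 that did not pass the adjusted threshold. The log2 change was -2.06 (SE 0.50, adjusted p = 0.121 in limma), and only 4 of the 15866 probe sets, itself included, had a log2 change as low as this or lower. For this probe set alone, a two-sided exact permutation over animals gave p = 0.0101. Mx2 is a gene the study itself had picked from these animals, so this value is not independent evidence of its direction. Without diabetic animal 4 the log2 change was -2.45 and the adjusted p in limma was 0.0311, the lowest of a range from 0.0311 to 0.258 over the settings tried. With a pseudocount of 64 added before the log the change shrank to -1.32. Signals under 100 are dim on this array: a mean signal of 170.0 is exceeded by 60% of probe sets.

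**Figure D1:**
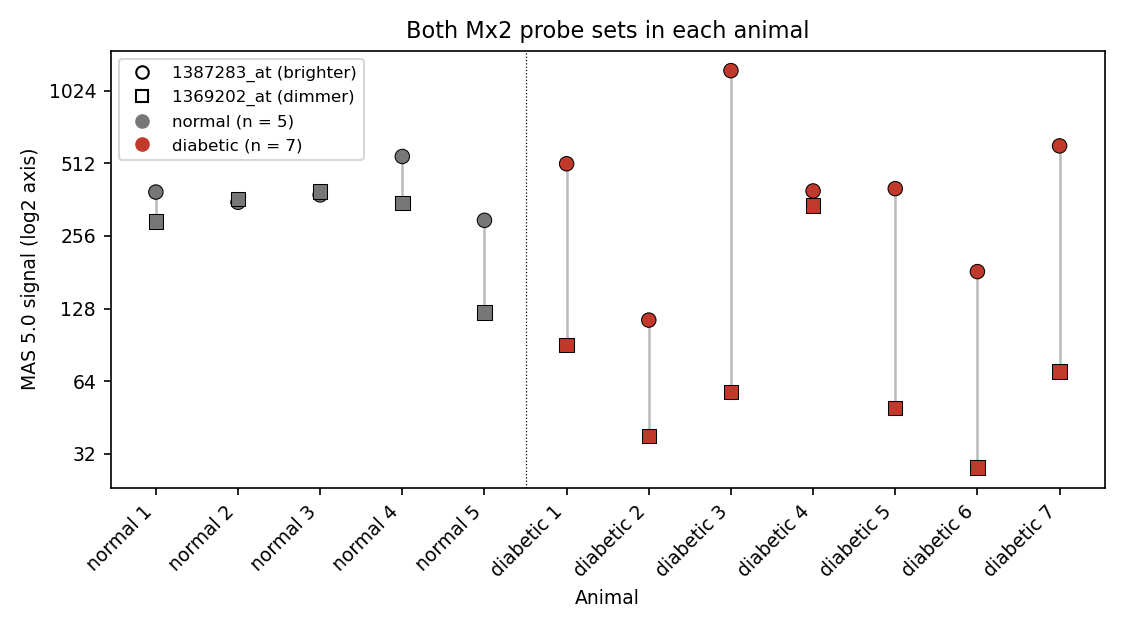
Signal of the pair of Mx2 probe sets in each animal, on a log axis, with a line joining the values of the same animal and groups marked by colour. The brighter signal is 0.968 to 2.41 times the dimmer in normal animals, with normal animal 5 the farthest apart. In 6 of 7 diabetic animals it is 3.03 to 21.5 times the dimmer, and in diabetic animal 4 it is 1.15 times.

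The disagreement was measured within each animal as the log2 signal of the brighter minus that of the dimmer Mx2 probe set. It was 0.41, -0.05, -0.04, 0.64 and 1.27 in normal animals 1 to 5. It was 2.50, 1.60, 4.42, 0.20, 3.03, 2.70 and 3.11 in diabetic animals 1 to 7. All diabetic animals other than number 4 exceeded every normal animal. The mean was 0.45 ± 0.55 (SD, n = 5) in normal and 2.51 ± 1.32 (SD, n = 7) in diabetic lung, a difference of 2.06 (exact permutation over the 792 ways of dividing 12 arrays, two-sided, p = 0.0139, where the smallest possible p is 0.00126). As the log2 change of the brighter probe set was 0.00 (SE 0.44), this difference is nearly the change of the dimmer one again. It is no more independent of the study's choice of Mx2. On the linear scale, the brighter signal was 0.968 to 2.41 times the dimmer in normal and 1.15 to 21.5 times in diabetic lung. Leaving out each animal in turn gave differences of 1.74 to 2.45, and a pseudocount of 64 gave 1.37. Probe sequences were not used here, so which transcript of Mx2 each probe set reads, and whether either also binds the related Mx1, was not tested. With each array's GAPDH ratio as a covariate, the log2 change was -2.82 for the dimmer and -0.26 for the brighter probe set (adjusted p = 0.105 and 0.923 in limma). That ratio itself differed between the groups, so this fit cannot tell its part from that of diabetes.

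The pair correlated weakly among animals. Across the 7 diabetic animals Pearson's r between their log2 signals was 0.341 (exact permutation p = 0.450) and Spearman's rho was 0.464 (exact permutation p = 0.302). Over all 12 arrays r was 0.241 (permutation p = 0.462) and rho was 0.0979 (permutation p = 0.767). Without the 2 arrays farthest from the median, diabetic animals 2 and 3, r was 0.450 among diabetic animals and 0.337 over all. These belong to a family of 17 pairs, each a Mx2 probe set with another member probe set, to which the adjusted values below refer.

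Oas1a encodes an enzyme that makes the 2-5A messenger, which activates RNase L to cut viral RNA. Its probe set (1371152_a_at) had signals of 428.9, 447.0, 391.2, 507.0 and 522.9 in normal animals. The signals were 685.0, 462.7, 1520.1, 533.1, 399.8, 782.8 and 528.4 in diabetic animals 1 to 7. Diabetic lung lay above all normal animals in 5 of 7 animals and below them in none. The mean was 459 ± 54.9 (SD, n = 5) in normal and 702 ± 384 (SD, n = 7) in diabetic lung, a log2 change of 0.48 (SE 0.25, adjusted p = 0.450 in limma) that did not pass the threshold. Oas1a has near relatives in the genome (Oas1b and Oas1i among them), and whether its probes bind these was not tested.

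Irf1 and Irf7 encode transcription factors of the interferon response, Irf1 as an early target of interferon gamma and Irf7 as the amplifier of type I interferon transcription. The Irf1 probe set (1368073_at) read 986.7, 1436.3, 1315.6, 1448.7 and 1437.0 in normal animals. Diabetic animals 1 to 7 had 2259.4, 1290.2, 1993.7, 1447.6, 1848.2, 1211.4 and 1699.3. Of these, 4 lay above all normal animals and none below. The means were 1325 ± 197 (SD, n = 5) and 1679 ± 385 (SD, n = 7), a fold change of 1.27 with an adjusted p of 0.394 in limma. Irf7 (1383564_at) read 850.3, 898.5, 961.4, 1549.6 and 1714.9 in normal animals. The diabetic animals, in the same order, read 1708.0, 662.4, 3009.8, 1160.7, 1217.7, 733.1 and 1318.6. Only diabetic animal 3 exceeded the normal range of Irf7, and diabetic animals 2 and 6 fell below it. The means of Irf7 were 1195 ± 405 (SD, n = 5) and 1401 ± 793 (SD, n = 7), with a log2 change of 0.12 (SE 0.31, adjusted p = 0.908 in limma).

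Stat2 encodes the transducer that type I interferon receptors activate. Its more even probe set (1389571_at) read 600.9, 598.1, 588.4, 625.3 and 655.9 in normal animals, a narrow range. The signals of diabetic animals 1 to 7 were 753.9, 453.7, 994.1, 470.0, 598.4, 448.9 and 610.7. Diabetic animals 1 and 3 were above, and 2, 4 and 6 below, every normal animal. The means were nearly equal, 614 ± 27.2 (SD, n = 5) and 619 ± 199 (SD, n = 7). The other Stat2 probe set (1373670_at) had means of 510.1 ± 105 (SD, n = 5) and 563 ± 230 (SD, n = 7), and again 2 diabetic animals were above and 3 below the normal range. The log2 changes of the pair were -0.05 (SE 0.17) and 0.06 (SE 0.24), with adjusted p of 0.943 and 0.945 in limma.

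Tap1 encodes a subunit of the transporter that carries peptides into the endoplasmic reticulum for class I antigen presentation. Its brighter probe set (1388149_at) read 676.2, 742.8, 844.9, 739.3 and 837.9 in normal animals. Among diabetic animals 1 to 7 it read 1128.9, 486.7, 1020.0, 690.1, 803.0, 417.4 and 640.6. As for Stat2, diabetic animals 1 and 3 stood above all normals, and 3 animals (2, 6 and 7) stood below. The means were 768 ± 71.9 (SD, n = 5) and 741 ± 263 (SD, n = 7), a log2 change of -0.13 (SE 0.21, adjusted p = 0.845 in limma). The other Tap1 probe set (1375379_at) was dim, at 40.1 to 121.1 in normal and 16.4 to 96.7 in diabetic lung, with a log2 change of -0.36 (SE 0.41, adjusted p = 0.767 in limma).

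**Figure D2:**
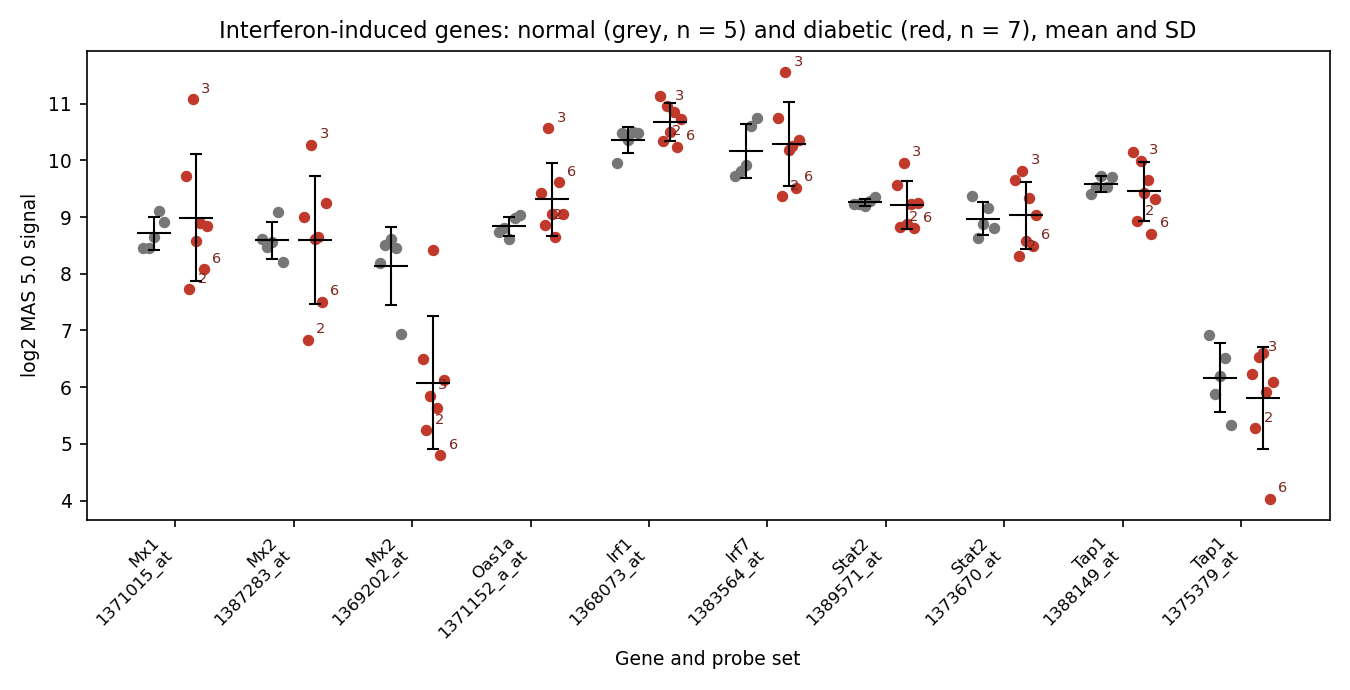
Signal of each of the 10 member probe sets in the 5 normal and 7 diabetic animals, 1 point per animal on a log2 scale, with the mean and SD of log2 signal. Diabetic animals 2, 3 and 6 are numbered: outside the dimmer Mx2 probe set, animal 3 is near the top and animal 2 near the bottom of each diabetic column.

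The diabetic animals kept much the same order from gene to gene. Over the 9 member probe sets other than the dimmer Mx2, diabetic animal 3 was among the 2 highest of the 7 diabetic animals in 9 and animal 1 in 6. Diabetic animal 2 was among the 2 lowest in 9, and animal 6 in 8. The exception was Oas1a, in which diabetic animal 6 was the second highest. The dimmer Mx2 probe set departed from this order at the top, where diabetic animal 4 was highest and animal 3 read 57.8.

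In the 7 diabetic animals, the brighter Mx2 probe set followed Irf7 with r = 0.960 (exact permutation p = 0.00139, adjusted p = 0.0236) and rho = 0.964 (exact permutation p = 0.00278, adjusted p = 0.0418). It followed Mx1 with r = 0.909 (exact permutation p = 0.00536, adjusted p = 0.0455) and rho = 0.893 (exact permutation p = 0.0123, adjusted p = 0.0418). Without the 2 animals farthest from the median, r was 0.906 for Irf7 and 0.742 for Mx1. The Stat2 probe sets (1389571_at and 1373670_at) gave r of 0.870 and 0.853 with the brighter Mx2, each at an adjusted p of 0.0481 by exact permutation, and rho of 0.929 and 0.893, each at an adjusted p of 0.0418. Without the same 2 animals r was 0.737 and 0.646. For Irf1 r was 0.786 (exact permutation, adjusted p = 0.103) and rho 0.786 (adjusted p = 0.136), and for the brighter Tap1 r was 0.799 (exact permutation, adjusted p = 0.103) and rho 0.679 (adjusted p = 0.266). The dim Tap1 gave r = 0.730 (exact permutation, adjusted p = 0.165) and rho = 0.571 (adjusted p = 0.364). Oas1a gave r = 0.555 (exact permutation, adjusted p = 0.366) and rho = 0.357 (adjusted p = 0.472), and its r turned to -0.496 without the 2 farthest animals and so rested on them.

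The dimmer Mx2 probe set had r of 0.141 with Mx1 and 0.274 with Irf7 in the diabetic animals, with rho of 0.429 and 0.50, and none of these passed (exact permutation, lowest adjusted p = 0.378). Here the 2 animals farthest from the median were diabetic 4 and 6, and without them r was 0.506 and 0.571. Its highest r was 0.717, with the dim Tap1 probe set (exact permutation p = 0.0978, adjusted p = 0.208), although the rho of that pair was 0.893 (exact permutation p = 0.0123, adjusted p = 0.0418).

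**Figure D3:**
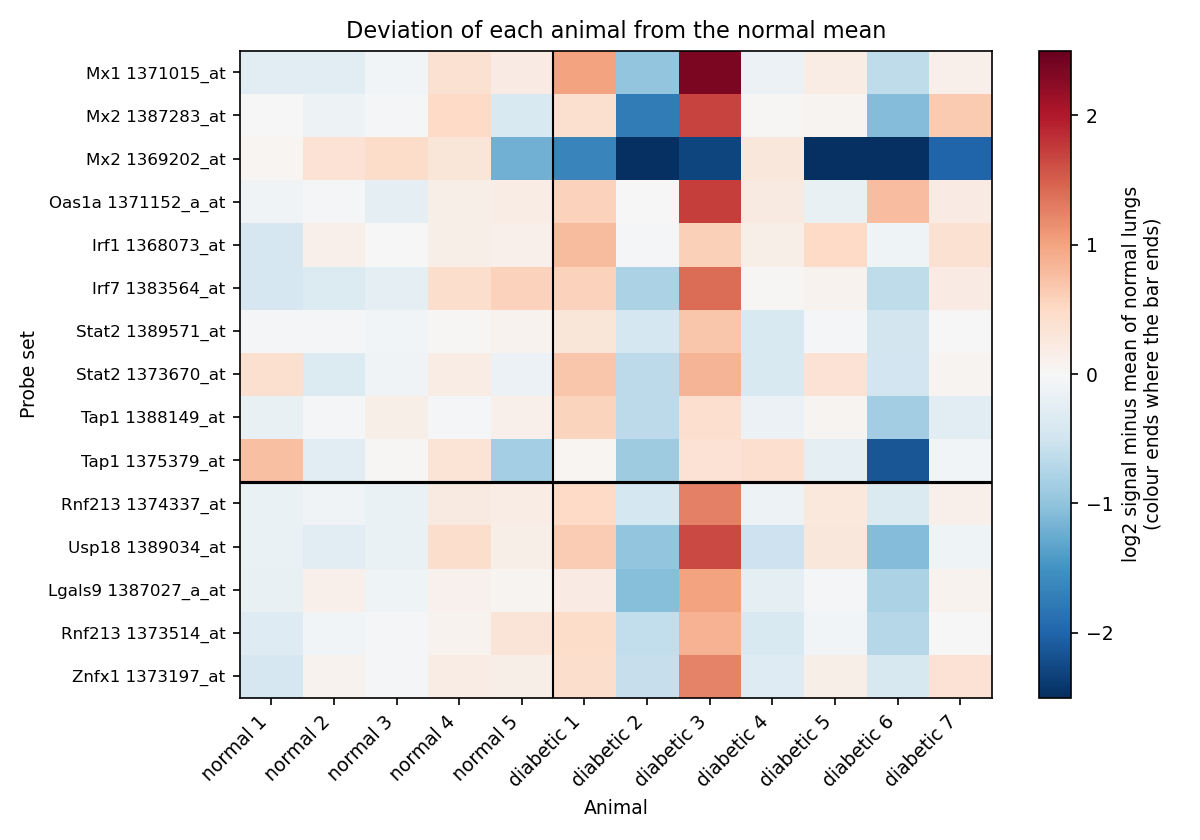
Log2 signal of each animal (columns) minus the mean of the normal animals, for the 10 member probe sets (above the line) and 5 other probe sets (below it), with red above and blue below the normal mean. The 5 are those most like the mean of the members' brightest probe sets, which leaves out the dimmer Mx2. The column of diabetic animal 3 is red and that of animal 2 mostly blue, and the dimmer Mx2 probe set is blue in every diabetic animal except number 4.

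Because several members varied together, the members' promoters were searched for the core of the interferon-stimulated response element, the site bound by complexes that hold Stat2 and Irf9 and by interferon regulatory factors. The letters searched were GAAANNGAAA, read on the other strand as TTTCNNTTTC, and overlapping matches were counted separately. The search covered 300 bases per promoter, from 250 before to 50 after a start given for the gene, in RefSeq annotation of GRCr8. In Oas1a, Irf7, Mx1 and Stat2 that start is not the outermost base of the annotated gene. A match was found in 1309 of 33365 promoters (3.92%). Of the 6 members with a promoter in the table, 3 had a match (Oas1a, Irf7 and Tap1), and Irf1, Mx1 and Stat2 had none in this window. Among 88 other genes of the interferon lists used below, 39 (44.3%) had a match. Mx2 and Isg15 were not in the table. The matching stretches of the 3 members are shown as the only matches among the 6 members searched, and those of Ifit3 and Rsad2 because diabetic animal 3 was far above the other animals in these antiviral genes. Diabetic animal 3 was also highest in genes without a match, such as Irf9, Oasl and Parp9, and in others with 1, such as Dtx3l and Parp14. Each stretch shown is written 5' to 3' along the gene's own strand, with matching letters in capitals.
Oas1a, chr12:41330395-41330465 (+): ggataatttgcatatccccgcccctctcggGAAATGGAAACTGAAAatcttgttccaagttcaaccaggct
Irf7, chr1:205800053-205800122 (-): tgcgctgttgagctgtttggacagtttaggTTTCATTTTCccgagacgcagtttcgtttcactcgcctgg
Tap1, chr20:4668625-4668694 (-): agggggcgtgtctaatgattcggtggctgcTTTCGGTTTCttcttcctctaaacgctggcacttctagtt
Ifit3, chr1:241527252-241527321 (+): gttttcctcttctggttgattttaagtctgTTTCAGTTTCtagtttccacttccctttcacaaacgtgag
Rsad2, chr6:48788228-48788297 (-): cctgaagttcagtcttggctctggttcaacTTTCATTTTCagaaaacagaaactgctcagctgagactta
In Oas1a 2 overlapping matches began 41 and 35 bases before the start on which the window is set. The matches began 69 bases before it in Irf7, 121 in Tap1, 44 in Ifit3 and 147 in Rsad2. Of the members with a match, r with the brighter Mx2 in the 7 diabetic animals was 0.960 for Irf7 and 0.555 for Oas1a. For the Tap1 probe sets it was 0.799 and 0.730. Of those without a match, it was 0.909 for Mx1, 0.870 and 0.853 for the Stat2 probe sets and 0.786 for Irf1. Whether a match goes with correlation was not tested.

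The spread among animals was larger in diabetic than in normal lung for all 10 member probe sets, whereas 50.8% of all probe sets had a larger spread there. The ratio of the diabetic to the normal SD of log2 signal had a median of 2.78 over the members, from 1.41 for Irf1 to 6.79 for the more even Stat2 probe set, beside a median of 1.01 over all probe sets. For that Stat2 probe set the SD was 0.0631 in normal and 0.428 in diabetic lung, and 0.309% of all probe sets had a ratio as large. The ratio was 3.88 for Mx1, 3.87 for the brighter Tap1, 3.71 for Oas1a and 3.52 for the brighter Mx2. It was 2.04 for the other Stat2 probe set, and 12.0% of all probe sets had a ratio as large. For the dimmer Mx2 it was 1.70, for Irf7 1.55 and for the dim Tap1 1.47. The median ratio was 1.96 without diabetic animal 3, and 1.64 without diabetic animals 2, 3 and 6, which were chosen for their values.

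A limma fit on each animal's absolute distance from its group mean called none of the 10 members after adjustment, with 1 probe set called in all (0.0063%). Without adjustment, 2 of the 10 had a larger spread in diabetic lung, the more even Stat2 probe set (limma, unadjusted p = 0.0260) and the brighter Tap1 (limma, unadjusted p = 0.0362), where 3.43% of all probe sets did. On simulated data with a known difference in spread this fit made no call after adjustment, so the absence of calls says nothing about the members, and the larger spread is given as a description only. It was chosen as a question after the data had been seen, and the 10 probe sets are not independent of each other because the same few animals stood apart in nearly all of them.

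**Figure D4:**
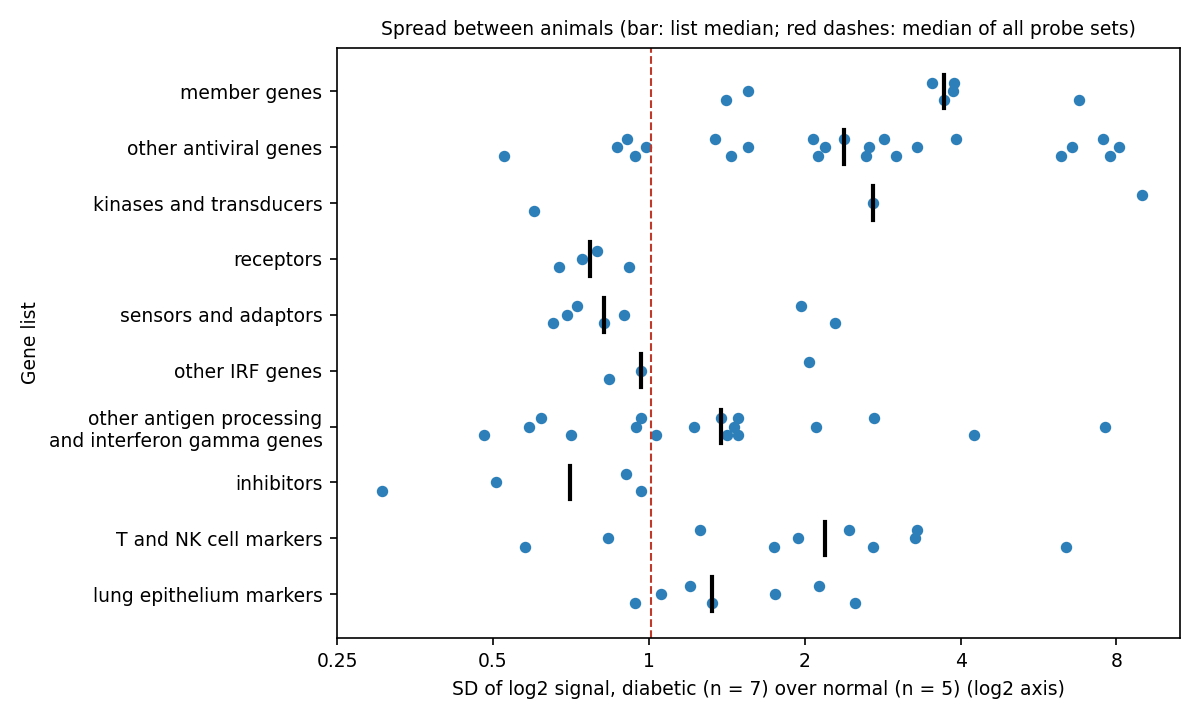
Ratio of the diabetic to the normal SD of log2 signal, 1 point per gene (its brightest probe set) on a log axis. Shown are the measured genes of the interferon lists, except the ligands, and of 2 marker lists. A bar marks each list's median and a dashed line the median of all probe sets. The 7 member genes all lie above 1 and the other antiviral genes have a median of 2.38, while the receptors and inhibitors lie below 1.

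The rest of the pathway was read from lists of known interferon genes, of which 63 of 111 were on the array. None of the 63 passed the adjusted threshold in limma, where 0.0672% of all genes did. Without adjustment 2 were higher and 2 lower, beside 6.04% of all genes higher and 7.62% lower. Their median log2 change was -0.02.

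Upstream of the members, 2 of 7 ligand genes were on the array, both dim. The mean signal of Ifng, interferon gamma, was 25.4 in normal and 23.4 in diabetic lung, and that of Ifnb1, interferon beta, was 34.7 and 32.7. Of the receptors, 4 of 6 were on the array. On brightest probe sets the log2 changes were 0.07 for Ifnar1, 0.09 for Ifnar2, -0.09 for Ifngr2 and -0.11 for Ifngr1. Their median was -0.01. The other probe sets of Ifnar1 had log2 changes of -0.05, 0.24 and -0.10, and that of Ifngr2 had 0.08, so these genes had no single direction. Of the kinases and transducers, 3 of 5 were on the array. The receptor kinase Tyk2 had a log2 change of 0.24, Jak2 -0.11 and Irf9 -0.05, and none passed.

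Irf9, the DNA-binding partner of Stat2, showed the members' order among animals. It read 550.2, 516.4, 519.1, 569.5 and 513.6 in normal animals. From diabetic animal 1 to 7 the signals were 679.2, 323.7, 1029.1, 384.5, 623.0, 363.7 and 480.4. The normal animals lay within a narrow range, and no diabetic animal fell inside it. Diabetic animals 1, 3 and 5 were above it and the other 4 below, and the diabetic SD of log2 signal was 8.96 times the normal SD.

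Of the sensors and adaptors of nucleic acid, 7 of 14 were on the array, 6 of them with a log2 change above 0 and a median of 0.16. The 2 that had an unadjusted p under 0.05 were Tbk1, the kinase that activates Irf3, and Tlr7, the endosomal receptor for single-stranded RNA. Mean Tbk1 was 772 in normal and 907 in diabetic lung, a log2 change of 0.23 (SE 0.08, adjusted p = 0.249 in limma). Mean Tlr7, dim on this array, was 95.2 and 139, a log2 change of 0.50 (SE 0.22, adjusted p = 0.362 in limma). The adaptor Myd88 had a log2 change of 0.37 (SE 0.18, adjusted p = 0.405 in limma). The spread ratio of this list had a median of 0.821, beside 2.78 over the member probe sets. Of the other interferon regulatory factors, 3 of 6 were on the array. The log2 change was 0.24 for Irf8, which drives macrophage and dendritic cell development, -0.10 for Irf3, which starts the type I response, and 0.35 for the dim Irf2, a repressor, and none passed.

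Of the other antiviral genes, 23 of 48 were on the array, with a median log2 change of 0.03, 14 above 0 and 9 below. The lowest unadjusted p was that of Ifi27, a small mitochondrial protein strongly induced by interferon. Its mean was 12970 in normal and 10890 in diabetic lung, a log2 change of -0.27 (SE 0.11, adjusted p = 0.344 in limma). Ifit3 had a log2 change of 0.64 and Ifi27l2b, a relative of Ifi27, of 0.44 (adjusted p = 0.529 and 0.530 in limma). This list repeated the members' pattern among animals. Of its 23 genes, 18 had a larger SD in diabetic lung and 15 (65.2%) had a ratio over 2, beside 12.6% of all probe sets. Diabetic animal 3 was the highest diabetic animal in 19 of 23 genes (82.6%), beside 11.5% of all probe sets. Diabetic animals 2 and 6 were together the lowest pair in 12 of 23 (52.2%), beside 6.30% of all probe sets.

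The high reading of diabetic animal 3 was clear in Ifit3 and Rsad2. Ifit3, which binds foreign RNA together with its relatives, read 326.8, 288.0, 285.4, 357.7 and 325.9 in normal animals. In diabetic animals 1 to 7 it read 833.8, 254.2, 1997.5, 364.1, 403.2, 354.0 and 314.6. Animals 1 and 3 stood far above the rest, and animal 6 lay within the normal range. Rsad2, the antiviral enzyme viperin, read 535.0, 667.7, 662.8, 691.0 and 623.3 in normal animals. In diabetic animals 1 to 7 it read 931.9, 713.3, 2711.6, 631.7, 897.7, 324.5 and 769.5, with animal 3 highest and animal 6 lowest, while animal 2 lay above every normal animal. Ifit1, of the same family as Ifit3, did not follow: its spread ratio was 0.524 and diabetic animal 3 read 252.7, where the highest diabetic animal read 541.3.

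Of the other antigen processing and interferon gamma genes, 17 of 20 were on the array, with a median log2 change of -0.08, 4 above 0 and 13 below. Icam1, an adhesion molecule for leukocytes, had a mean of 4323 in normal and 3638 in diabetic lung, a log2 change of -0.25 (SE 0.09, adjusted p = 0.264 in limma). Wars1, a tRNA synthetase induced by interferon gamma, had a log2 change of -0.22. Gch1, which makes the cofactor of nitric oxide synthase, had one of 0.33 for its brightest probe set and -0.43 for its other. The spread ratio of this list had a median of 1.38. Diabetic animal 3 was the highest diabetic animal in 1 of these 17 genes (5.88%), beside 11.5% of all probe sets. Diabetic animals 2 and 6 were the lowest pair in 3 of 17 (17.6%), beside 6.30% of all probe sets. Animal 2 or animal 6 was the lowest diabetic animal in 13 of 17 (76.5%), beside 34.6% of all probe sets. Of the inhibitors of interferon signalling, 4 of 5 were on the array, with log2 changes of 0.17 for Socs3, -0.33 for the dim Socs1 and -0.06 for the phosphatase Ptpn2 and a median spread ratio of 0.706. The other probe sets of Socs1 and Ptpn2, both dim, went the other way, with log2 changes of 0.73 and 0.29. The 4 receptors had a median ratio of 0.769 and none had a larger SD in diabetic lung.

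A mean of the members was taken over the brightest probe set of each gene, which left out the dimmer Mx2. Over all arrays, with each animal taken relative to its group mean, the probe sets whose log2 signal most resembled it were those of Rnf213 (r = 0.981 and 0.961 for a pair of probe sets), Usp18 (r = 0.970), Lgals9 (r = 0.969) and Znfx1 (r = 0.956). These were the first of 8034 candidates over 12 arrays. The values are a description, as all probe sets share the same arrays. Usp18, the protease that removes Isg15 from proteins, read 595.6, 546.8, 596.1, 903.9 and 737.8 in normal animals. In diabetic animals 1 to 7 it read 1032.1, 334.9, 2098.4, 464.3, 807.7, 313.3 and 620.7, with animals 1 and 3 highest and animals 2 and 6 lowest. The brighter Mx2 probe set resembled Lgals9 (r = 0.950), Mx1 (r = 0.885), RT1-S3 (r = 0.885), Usp18 (r = 0.875) and Oasl (r = 0.874). The dimmer resembled a different set, with Clec4a3 (r = 0.881), Trpm7 (r = 0.850), Arfgap3 (r = 0.838), Gnl2 (r = 0.838) and Cgnl1 (r = 0.834) first.

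Some measures of the arrays were also extreme in the animals that stood apart, though not in the same order. The 10 T and NK cell markers had a summed signal of 3049 to 3755 in normal and 1677 to 3848 in diabetic lung, with diabetic animal 6 lowest and diabetic animal 3, at 2917, also below every normal animal. Singly, on brightest probe sets, Cd3d, Cd3g, Cd247 and Cd4 lay below every normal animal in diabetic animal 3. Gzmb, at 448.2, lay above its normal range of 241.1 to 405.5, and the other T and NK cell markers lay within theirs. The median spread ratio of the T and NK cell markers was 2.19, and that of the epithelial markers 1.32. The summed B cell markers (2 of 5 on the array) were also lowest in diabetic animal 6, at 7566. That sum was carried by Cd74, at 7481.9. The other marker, Cd79b, read 84.1 there and lay below all normal animals in 6 of 7 diabetic animals. Its log2 change was -0.82 (limma, unadjusted p = 0.00604, adjusted p = 0.202). The summed neutrophil markers (3 of 5 on the array) were highest in diabetic animal 3, at 6122, where normal animals read 2290 to 3996. That sum was carried by S100a8 and S100a9, and the third marker, Cxcr2, read 91.9 in diabetic animal 3, within its normal range of 60.2 to 115.6. The summed plasmacytoid dendritic cell markers (2 of 4 on the array, Tcf4 and Bst2) were lowest in diabetic animal 2, at 4046, but Tcf4 alone was lowest in diabetic animal 5 and Bst2, itself an interferon-induced gene of the antiviral list, in diabetic animal 6. Of the macrophage markers (3 of 7 on the array), the receptor gene Csf1r read 1024.3 to 1457.7 in normal animals and 1770.5 and 1685.7 in diabetic animals 1 and 3. Csf1r was lowest among diabetic animals in 6 and 2, at 1140.9 and 1212.9, and its log2 change was 0.29 (limma, unadjusted p = 0.0303). Cd68 did not follow this order, with 1376.3 and 1215.5 in diabetic animals 1 and 2. It read 709.9 in diabetic animal 3 and 709.0 in animal 6, within its normal range of 623.8 to 783.8. The summed macrophage markers, of which Lyz2 is by far the brightest, were instead highest among diabetic animals in animal 6, at 32205. The GAPDH ratio was 1.13 in diabetic animal 2, 1.17 in animal 3 and 1.30 in animal 6, the last within the normal range. The beta-actin ratio of diabetic animal 6 was 2.85, the highest of the 12 arrays, and its array had the lowest weight in limma, 0.47. The part of these measures in the members' order was not tested.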

How the data were processed

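Whole-lung RNA of 5 normal and 7 diabetic rats was measured on Affymetrix RAE 230A arrays, with 1 array for each animal. The deposited values are MAS 5.0 signals (named as MAS5 in the submitters' processing notes), 1 intensity per probe set on a linear scale, which the authors scaled to the same trimmed mean on each array. BAMarray and the present and absent calls were not used here.

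Signals were transformed to log2, with 1 value at or below 0 set to 0.1. All 15866 probe sets other than 57 controls (of 15923) were tested in R 4.3.3 with limma 3.58.1 (lmFit, eBayes with an intensity trend, two-sided), at a Benjamini-Hochberg adjusted p of 0.05. No filter was used, because dim members were kept. Gene names came from the platform annotation, updated by Entrez ID for 12748 probe sets and by accession for 2 and kept as annotated for 33, while 312 probe sets named several genes and 2771 none. A gene with several probe sets was counted by its brightest. Single values were compared by exact permutation, and correlations by permutation. The fits were tested on simulated data. Tables and figures were made with python 3.11.15, numpy 2.4.6 and matplotlib 3.10.9.

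The members, the lists and the rule for named genes were chosen with earlier results of these data known. The rule names every member with all its probe sets, list genes past the adjusted threshold and up to 3 genes of smallest p per list. It also names the lung epithelial markers, the actin and GAPDH controls and the 5 probe sets most like the mean of the members' brightest probe sets. Rsad2, Ifit1 and the probe sets most like each Mx2 probe set were chosen after their values were seen. So were the single immune cell markers and the further genes named beside the promoter stretches. Alternatives were another scaling, a pseudocount of 64, a filter on the dimmest 40%, other variance models, weights per array, blocking on replicate number, the GAPDH ratio as a covariate and leaving out each animal. The comparison of spread and its alternatives were added after seeing the data. Precision is limited by how many arrays there are.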

Additional observations from a re-analysis of the deposited data

Results flagged for a closer look

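Within a group and on log2 signal, the lowest animal stood apart in 2 of the 20 sets of values tested, which were the 10 member probe sets in each of 2 groups. Chance alone sets apart about 1 in 20 such sets. Normal animal 5 read 123.1 for the dimmer Mx2 probe set, and its gap to the next animal was 0.752 of the range of the 5 normal animals on the log2 scale. Normal animal 1 read 986.7 for Irf1, with a gap of 0.749 of the range on the same scale. The critical value was 0.71.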

How the results depend on the processing

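Of all probe sets, 7 passed the threshold. That count was 16 with the dimmest 40% left out, 13 after quantile scaling, 0 without the intensity trend, 23 with array weights, 0 with the replicate block and 170 with the GAPDH ratio as a covariate, and 0 to 20 when each animal was left out. Of the members, 0 to 1 passed when each animal was left out, the 1 being the dimmer Mx2 probe set without diabetic animal 4, and 0 passed under every other setting. The filter removed that probe set and the dim Tap1. The median spread ratio of 2.78 became 1.64 without diabetic animals 2, 3 and 6, and was 1.96 to 3.82 with each animal left out.

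The numbers of the animals are only names: same-numbered normal and diabetic animals did not deviate together (r of -0.07 to 0.04). With the replicate block, the difference between the Mx2 probe sets was 1.90 (exact permutation p = 0.125, where 5 pairs cannot go below 0.0625).

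Some members' log2 change crossed 0. Stat2 (1389571_at) became 0.03 and Tap1 (1388149_at) 0.05 with the replicate block, and with the GAPDH ratio Irf7 became -0.03 and Stat2 (1373670_at) -0.04. With each animal left out, the change was -0.17 to 0.02 for Stat2 (1389571_at), -0.07 to 0.18 for Stat2 (1373670_at), -0.09 to 0.28 for Irf7, -0.07 to 0.48 for Mx1 and -0.28 to 0.29 for the brighter Mx2. The GAPDH ratio as a covariate also moved Oas1a from 0.48 to 0.97, Irf1 from 0.32 to 0.08, Tap1 (1388149_at) from -0.13 to -0.60, Tap1 (1375379_at) from -0.36 to -1.11, Mx1 from 0.27 to 0.16 and Stat2 (1389571_at) from -0.05 to -0.18, and none passed. As this ratio differed between the groups, its part in these fits cannot be told apart from that of diabetes. The cause of these shifts was not tested.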
